A study of Saccharomyces cerevisiae with 134 samples.

Results

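Budding yeast stores glucose as glycogen, and 10 genes of glycogen metabolism were followed by ID through the RNA and histone methylation measurements of a study of the methyltransferase Set2. The genes were GLG1 and GLG2 (glycogenin-like initiators), GSY1 and GSY2 (glycogen synthases), GLC3 (branching enzyme), PGM2 (the major phosphoglucomutase), GAC1 (a regulatory subunit that brings the phosphatase Glc7 to glycogen synthase), GPH1 (glycogen phosphorylase), GDB1 (debranching enzyme) and IGD1 (an inhibitor of Gdb1). All 10 were listed in the RNA tables, among 6692 genes. The tables of trimethylated lysine 36 of histone H3 (H3K36me3), a mark that Set2 lays over transcribed genes, listed 9 of them among 5355 genes, without GPH1.

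The cells were BY4741. For RNA, rph1Δ cells, which lack the H3K36 demethylase and transcription regulator Rph1, were set against wild-type (WT) cells, both grown in YPD, with 3 libraries each. In the light courses, set2Δ cells expressed LANS-Set2, a fusion of Set2 with a light-controlled nuclear shuttle, in SC−LEU. They were grown in the dark and moved to blue light of 500 μW/cm2 for 20, 40 and 60 min, or grown in that light and moved to the dark for 30, 60 and 90 min, each with a 0 min sample. RNA had 3 libraries per time, except 2 at 60 min of light. H3K36me3 had 3 libraries per time in each of these courses. It was also measured in a further light to dark course whose genotype label is set2Δ rph1Δ, while the growth description speaks of rph1Δ cells with LANS-Set2. By their genotype labels all courses were in cells without chromosomal SET2, so the 0 min samples are not labelled wild type. The promoter that drives LANS-Set2 is not given in the sources used here. By the labels, no cells stayed in their first light condition for the times of a course. No RNA is labelled as coming from cells without LANS-Set2 in blue light. Time since the switch, light itself and the action of LANS-Set2 thus cannot be told apart. All cultures were taken at 30 °C and an OD600 of 0.8 to 1.0, that is, from growing cells. Nothing in the labels says whether replicates were separate cultures, so p-values measure the spread between these libraries only.

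Glycogen synthesis starts when glycogenin-like proteins prime a short glucose chain, which glycogen synthase lengthens from UDP-glucose and the branching enzyme branches. Phosphorylase and the debranching enzyme take the polymer apart again, and phosphorylation inactivates the synthase, which Glc7 with Gac1 reverses. In yeast these genes are known for low activity in rapid growth on glucose and for induction on stress and as glucose runs out, in part through the stress response element AGGGG, which the activators Msn2 and Msn4 bind. Rph1 and its relative Gis1 have been described as binding the same letters in the promoter of PHR1.

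The element was searched, on both strands, in the 300 bases that begin 400 bases before each start codon (RefSeq R64 annotation, the assembly that sacCer3 names). It was found in 8 of the 10 windows, with 4 copies before PGM2, 3 before GLC3, 2 each before GSY2, GLG2, GPH1 and IGD1, and 1 each before GSY1 and GDB1. Before GLG2 the next annotated gene, YJL136W-A, lies only 41 bases away, so both copies there lie beyond the gap between the genes. Of 6020 such windows over the genome, 23.5% held it at least 1 time and 4.1% held 2 or more. The windows of GLG1 and GAC1 did not hold these letters. The related letters AGGGAT, the post-diauxic shift element, were in 0 of the 10 windows, against 9.72% of all windows. The windows of PGM2 and GLC3, which had most copies, of the synthase gene GSY2, of the phosphorylase gene GPH1 and of GLG1, which had no copy, are shown 5′ to 3′ along the strand of the gene, with AGGGG or its complement CCCCT in capitals. A match describes the letters and is not a bound site.
PGM2 (chrXIII:477707-478006, minus strand): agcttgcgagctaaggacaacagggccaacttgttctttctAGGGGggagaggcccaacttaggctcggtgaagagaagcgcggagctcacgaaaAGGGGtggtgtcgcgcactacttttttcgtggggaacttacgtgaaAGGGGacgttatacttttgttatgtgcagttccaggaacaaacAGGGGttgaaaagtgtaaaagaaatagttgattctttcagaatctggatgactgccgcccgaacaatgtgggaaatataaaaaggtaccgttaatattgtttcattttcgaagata
GLC3 (chrV:132720-133019, plus strand): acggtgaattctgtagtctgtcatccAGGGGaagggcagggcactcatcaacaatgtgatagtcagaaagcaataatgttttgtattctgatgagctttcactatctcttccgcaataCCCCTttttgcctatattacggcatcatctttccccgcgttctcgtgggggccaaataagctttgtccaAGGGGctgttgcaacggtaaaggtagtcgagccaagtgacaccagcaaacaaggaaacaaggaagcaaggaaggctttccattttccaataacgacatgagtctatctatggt
GSY2 (chrXII:660316-660615, plus strand): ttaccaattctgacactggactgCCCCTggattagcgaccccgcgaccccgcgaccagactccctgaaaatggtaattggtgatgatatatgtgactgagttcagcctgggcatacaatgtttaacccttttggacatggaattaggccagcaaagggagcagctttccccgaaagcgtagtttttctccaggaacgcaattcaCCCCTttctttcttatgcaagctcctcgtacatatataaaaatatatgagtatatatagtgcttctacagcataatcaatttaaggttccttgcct
GPH1 (chrXVI:860906-861205, plus strand): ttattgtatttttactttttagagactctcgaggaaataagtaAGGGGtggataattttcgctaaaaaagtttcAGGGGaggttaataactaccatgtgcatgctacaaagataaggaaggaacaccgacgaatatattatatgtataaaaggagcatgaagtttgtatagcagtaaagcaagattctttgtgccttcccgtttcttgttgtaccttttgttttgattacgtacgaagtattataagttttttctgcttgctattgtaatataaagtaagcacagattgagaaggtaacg
GLG1 (chrXI:552370-552669, plus strand): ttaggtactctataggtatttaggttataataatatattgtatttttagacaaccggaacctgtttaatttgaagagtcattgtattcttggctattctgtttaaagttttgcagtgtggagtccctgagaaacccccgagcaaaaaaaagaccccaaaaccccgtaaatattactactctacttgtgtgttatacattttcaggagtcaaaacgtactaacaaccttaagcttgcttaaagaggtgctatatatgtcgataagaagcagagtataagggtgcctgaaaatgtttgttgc

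**Figure D1:**
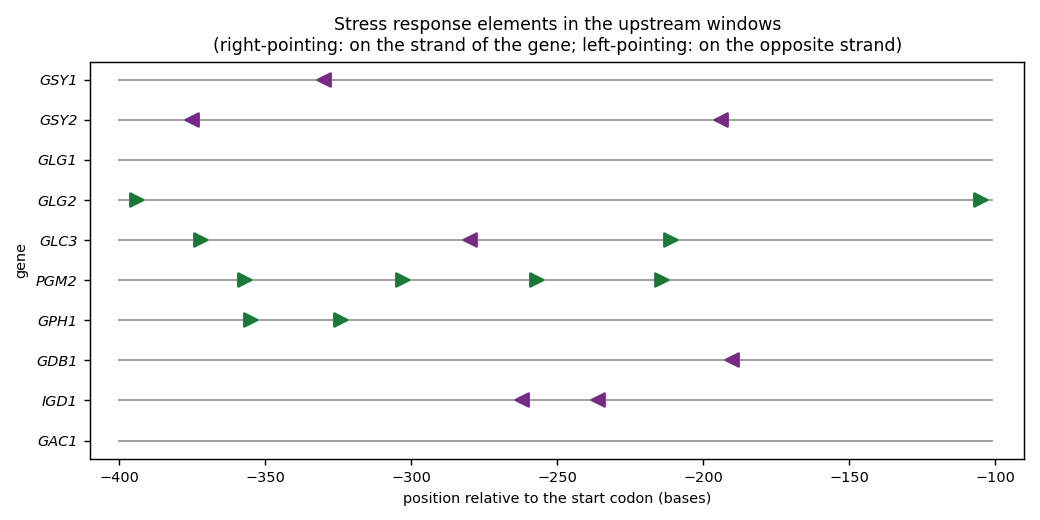
Copies of AGGGG in the upstream windows of the 10 glycogen genes. The x axis gives the position relative to the start codon in bases, and triangles point right for copies on the strand of the gene and left for the opposite strand. PGM2 has 4 copies, all on the strand of the gene, and GLG1 and GAC1 have none.

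The genes themselves are single coding exons, and no other annotated gene overlaps them. GSY1 (YFR015C) lies at chrVI:174265-176391 (minus strand), close to IGD1 (YFR017C) at chrVI:182274-182861 (minus), and GPH1 (YPR160W) at chrXVI:861306-864014 (plus) shares its chromosome with GDB1 (YPR184W) at chrXVI:902044-906654 (plus). GSY2 (YLR258W) is at chrXII:660716-662833 (plus), GLC3 (YEL011W) at chrV:133120-135234 (plus), GLG1 (YKR058W) at chrXI:552770-554620 (plus), GLG2 (YJL137C) at chrX:154985-156127 (minus), PGM2 (YMR105C) at chrXIII:475897-477606 (minus) and GAC1 (YOR178C) at chrXV:667860-670241 (minus). GSY1 and GSY2 share 73.2% of aligned coding bases, with a longest common run of 20 bases, and GLG1 and GLG2 share 64%, with a longest run of 14. How reads common to such pairs were assigned is a matter of the authors' counting.

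RNA depth was 9295949 to 14334963 reads per library for rph1Δ and WT, 16022537 to 29032861 for dark to light and 10551857 to 27652694 for light to dark, the reads of both courses being recovered from the deposited values. RPH1 RNA was at 0, 0.017 and 0.0248 TPM, a length-corrected share of each library's transcripts, in rph1Δ and at 17.4, 15.9 and 15.6 TPM in WT. SET2 RNA, which can come from LANS-Set2, averaged 117 to 135 TPM over the times of the courses, and was lowest in replicate 1 of light to dark at every time (78.8 to 101 TPM). BY4741 is of mating type a, and markers of a cells summed to 2281 to 9303 TPM, against 0.898 to 4.03 TPM for those of alpha cells.

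In growing cells on YPD the glycogen genes had low RNA levels. Over the 6 rph1Δ and WT libraries GSY2 averaged 14.1 TPM, PGM2 11.9, GLG2 11.8, GPH1 7.04, IGD1 5.8, GLC3 5.44, GDB1 4.77, GLG1 4.27, GSY1 2.58 and GAC1 2.02. The ranges of GSY2 and PGM2 overlapped (13.2 to 15.2 and 10.5 to 13.6 TPM), as did those of IGD1, GLC3 and GDB1. Reads behind a value ran from 42 (IGD1, lowest library) to 929 (GSY2, highest library). In the courses, in other medium and in cells with LANS-Set2, the order was led by PGM2 and GSY2, at 130 and 95.1 TPM over the 11 dark to light libraries and at 178 and 96.1 TPM over the 12 light to dark libraries. GPH1 came next (62.3 and 91.2 TPM in the same sets), followed by GLC3 (35.4 and 41.5 TPM), and GAC1 was again last, at 1.65 and 2.51 TPM. GLG2 averaged 14.4 TPM in dark to light and 14.2 TPM in light to dark, against 11.8 TPM over the YPD libraries. That last value pools a mean of 13.8 TPM in rph1Δ with 9.86 TPM in WT. The lowest course library of GLG2, at 12.2 TPM, lay above every WT library (9.18 to 10.3 TPM). The tables, media and strains differ together, so these levels stand side by side without a test.

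**Figure D2:**
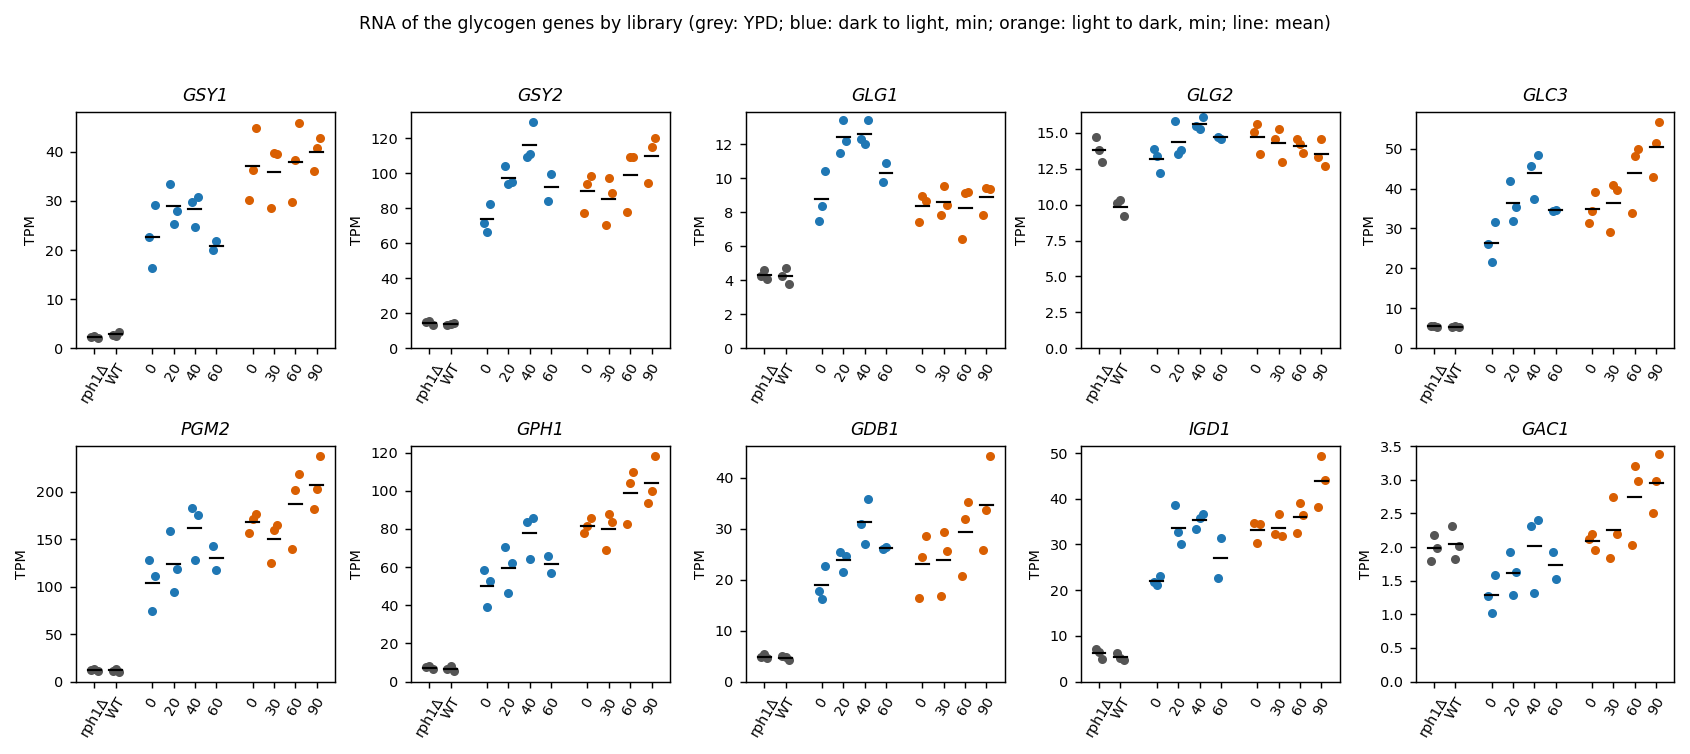
RNA of the 10 glycogen genes in every library. The y axes give TPM from 0, points are libraries and lines are group means; grey points are rph1Δ and WT on YPD, blue points dark to light (0, 20, 40 and 60 min) and orange points light to dark (0, 30, 60 and 90 min). All genes except GLG2 and GAC1 lie higher in every course library than on YPD, GSY2 peaks at 40 min of light, and GLG2 separates rph1Δ from WT.

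In rph1Δ cells 1 of the 10 glycogen genes was called. GLG2, one of the initiators, had 14.7, 13.8 and 13 TPM in rph1Δ, against 10.1, 10.3 and 9.18 TPM in WT, and every rph1Δ library lay above every WT library. It rose 1.39-fold (log2 change 0.47 ± 0.08 SE, edgeR quasi-likelihood test, adjusted p = 0.000697, n = 3 each), in a comparison where 9.46% of the 6088 genes tested were called higher and 2.83% lower. Its relative GLG1 stood at 4.22, 4.6 and 4.06 TPM in rph1Δ and at 4.26, 4.69 and 3.77 TPM in WT, with overlapping groups and a log2 change of 0.01 ± 0.10. The ratio of GLG1 to GLG2 was accordingly 0.311 ± 0.0236 in rph1Δ and 0.43 ± 0.0224 in WT (SD, n = 3 each). In such bulk samples, a change in the share of cells that express a gene and a change in RNA per cell cannot be told apart.

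The synthase gene GSY1 had 2.3, 2.5 and 2.12 TPM in rph1Δ, against 2.7, 2.56 and 3.31 TPM in WT. The groups did not overlap, but the difference missed the threshold (log2 change -0.34 ± 0.12 SE, edgeR adjusted p = 0.0866). It rests on 103 to 190 reads per library. GSY2, the more abundant synthase, had 15.1, 15.2 and 13.2 TPM in rph1Δ and 13.4, 13.7 and 14.2 TPM in WT (log2 change 0.05 ± 0.06). The other 6 genes had log2 changes between -0.05 (GAC1) and 0.15 (IGD1), all with overlapping groups. Groups thus did not overlap for 1 gene higher and 1 lower in rph1Δ, beside 16.7% and 9.17% of all genes tested. The median of the 10 changes was 0.05, beside -0.01 for all genes tested, and 2 of the 10 had an unadjusted p under 0.05.

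Some genes around the pathway, from lists chosen with earlier results of these data known, were called in rph1Δ. Of all genes tested there, 9.46% were called higher and 2.83% lower. Of 6 genes that supply sugar phosphates and UDP-glucose, 1 fell, the hexokinase gene HXK1, with 23.5, 23.1 and 23.9 TPM in rph1Δ against 29.0, 27.9 and 28.0 TPM in WT (log2 change -0.28 ± 0.05, edgeR adjusted p = 0.00085). Of 14 phosphatase, kinase and cyclin genes that act on glycogen enzymes, 3 rose and 0 fell. They were PSK1, a PAS kinase that phosphorylates the synthase (0.44 ± 0.05, adjusted p = 1.44e-05), PCL8, a cyclin of the Pho85 kinase (0.36 ± 0.09, adjusted p = 0.0146), and SNF1, the kinase of glucose derepression (0.16 ± 0.05, adjusted p = 0.0386), all by edgeR. Among the transcription regulators, RIM15, a kinase that acts ahead of Msn2, Msn4 and Gis1, rose by 0.24 ± 0.04 on the log2 scale (adjusted p = 0.000992), and MSN2, MSN4, GIS1, NRG1 and XBP1 were not called. Of 8 stress marks, 1 was called, PNC1 (0.19 ± 0.05, adjusted p = 0.0143), and the marks summed to 388 to 521 TPM in rph1Δ and 354 to 670 TPM in WT.

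When cells were moved from dark to light, RNA of several glycogen genes was higher at 40 min. At 40 min against 0 min, 5 of the 10 genes rose past the threshold (limma on log2 of TPM plus 1, adjusted p under 0.05) and 0 fell, in a comparison that called 3.54% of 5907 genes higher and 0.254% lower. They were GSY2, GLC3 and GLG1, which build the polymer, and GDB1 and its inhibitor IGD1. All 10 genes had positive changes at 40 min, with a median of 0.64, against 0.10 for all genes tested, of which 75.1% were positive.

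The synthase gene GSY2 had 71.7, 66.3 and 82.5 TPM at 0 min, 104, 93.5 and 95 TPM at 20 min, 109, 111 and 129 TPM at 40 min, and 83.9 and 99.7 TPM at 60 min. All libraries at 20, 40 and 60 min lay above all libraries at 0 min. At 40 min the log2 change was 0.66 ± 0.10 (SE, 1.58-fold, limma adjusted p = 0.0173). The branching enzyme gene GLC3 had 26.0, 21.6 and 31.6 TPM at 0 min, 41.8, 31.8 and 35.5 TPM at 20 min, 45.8, 37.4 and 48.5 TPM at 40 min, and 34.4 and 34.7 TPM at 60 min, again with no overlap with 0 min. Its log2 change at 40 min was 0.72 ± 0.14 (1.65-fold, limma adjusted p = 0.0312), the highest of the 10. The initiator gene GLG1 had 7.48, 8.39 and 10.4 TPM at 0 min, 11.5, 13.4 and 12.2 TPM at 20 min, 12.3, 12 and 13.4 TPM at 40 min, and 9.76 and 10.9 TPM at 60 min. Its groups at 20 and 40 min lay apart from 0 min, while that at 60 min overlapped it. The log2 change of GLG1 at 40 min was 0.48 ± 0.11 (1.4-fold, limma adjusted p = 0.0414).

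On the breakdown side, the debranching enzyme gene GDB1 had 17.8, 16.2 and 22.7 TPM at 0 min, 25.5, 21.5 and 24.6 TPM at 20 min, 30.9, 27.1 and 35.9 TPM at 40 min, and 26.0 and 26.4 TPM at 60 min. Replicate 2 was the lowest of 3 at 0, 20 and 40 min, and the groups at 40 and 60 min did not overlap 0 min. Its log2 change was 0.71 ± 0.13 at 40 min (1.63-fold, limma adjusted p = 0.0226). IGD1, whose product inhibits Gdb1, had 21.8, 21.2 and 23.1 TPM at 0 min, 38.6, 32.7 and 30.0 TPM at 20 min, 33.5, 35.9 and 36.6 TPM at 40 min, and 22.6 and 31.5 TPM at 60 min. The 0 min libraries of IGD1 were close together and below all of 20 and 40 min. Its log2 change at 40 min was 0.66 ± 0.12 (1.58-fold, limma adjusted p = 0.0226).

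PGM2 and GPH1 had changes of the same size at 40 min but a wider spread. PGM2 had 128, 74.2 and 111 TPM at 0 min, 159, 94 and 118 TPM at 20 min, 183, 128 and 175 TPM at 40 min, and 143 and 117 TPM at 60 min, with replicate 2 lowest throughout. Its log2 change at 40 min was 0.65 ± 0.24 (limma adjusted p = 0.124). GPH1 had 58.5, 38.9 and 52.5 TPM at 0 min, 70.3, 46.2 and 62.0 TPM at 20 min, 83.6, 64.4 and 85.7 TPM at 40 min, and 65.7 and 57.1 TPM at 60 min, again with replicate 2 lowest. Its log2 change at 40 min was 0.64 ± 0.19 (limma adjusted p = 0.0793). GLG2 moved least of the 10 at 40 min, by 0.23 ± 0.07 (limma adjusted p = 0.0829), with 15.5, 15.3 and 16.1 TPM at 40 min against 13.9, 13.4 and 12.2 TPM at 0 min. GSY1 had 29.7, 24.7 and 30.8 TPM at 40 min against 22.6, 16.4 and 29.1 TPM at 0 min (0.34 ± 0.18), and GAC1 had 2.31, 1.31 and 2.41 TPM at 40 min against 1.27, 1.02 and 1.58 TPM at 0 min (0.38 ± 0.20). The groups of GSY1 and of GAC1 overlapped. Groups at 40 and 0 min did not overlap for 8 of the 10 genes, all higher at 40 min, beside 28.9% of all genes tested.

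At 20 min 0 of the 10 genes were called by limma, where 0.0169% of genes were called. All 10 changes were positive, between 0.11 (GLG2) and 0.59 (IGD1) with a median of 0.35, against 0.04 for all genes, and 5 had an unadjusted p under 0.05. GSY2, GLC3, GLG1 and IGD1 had no overlap with 0 min, 4 of 10 beside 10.6% of all genes. At 60 min, with 2 libraries, 0 of 10 were called and 0.0508% of genes were, with 3 unadjusted p under 0.05. The changes at 60 min ran from -0.08 (GSY1) to 0.47 (GDB1, limma adjusted p = 0.132), with a median of 0.29 against 0.08 for all genes. GSY2, GLC3, GLG2 and GDB1 lay above 0 min with no overlap, 4 of 10 beside 26.6% of all genes. edgeR on reads recovered from TPM called 0 of the 10 at 20 min (0.0% of all genes) and at 60 min (2.37%) as well, with 5 and 3 unadjusted p under 0.05.

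The 40 min calls depended on single libraries. limma called 0 of the 10 genes when replicate 1, 2 or 3 was left out of the whole course, or when only replicate 1 or 2 at 0 min, or replicate 1 or 3 at 40 min, was left out. In those fits it called 0 to 7 genes of the whole table. Without replicate 3 at 0 min 5 of the 10 were called, beside 569 of all 5906 genes tested. Without replicate 2 at 40 min 4 were called, beside 154 of all 5904. In all of these fits the changes of the 5 genes stayed between 0.39 and 0.85. edgeR on the recovered reads called the same 5 genes at 40 min (3.44% of all genes higher), with log2 changes of 0.43 (GLG1) to 0.65 (GLC3). Over all genes the limma calls at 40 min were 209 higher and 15 lower (93.3% higher), and those of edgeR were 202 higher and 280 lower (41.9% higher).

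**Figure D3:**
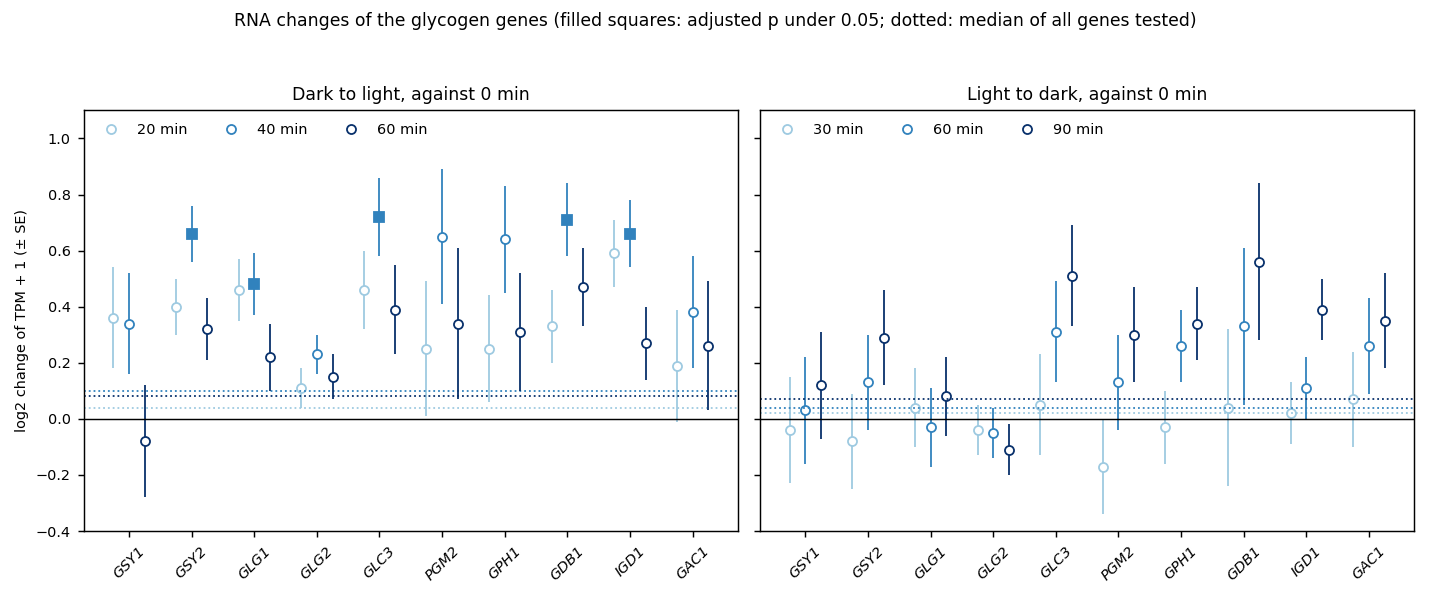
Changes of glycogen gene RNA against 0 min in the dark to light course (left) and the light to dark course (right). The y axis gives the log2 change of TPM plus 1, bars are ± SE, filled squares passed an adjusted p of 0.05 in limma, and dotted lines are the median of all genes tested. The 5 filled squares, GSY2, GLG1, GLC3, GDB1 and IGD1, are all at 40 min of light, and most points of both courses lie above the median gene at the last times.

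General stress genes moved in the same libraries. The summed level of 8 stress marks was 2689 to 3292 TPM at 0 min, 3675 to 4494 TPM at 20 min, 5225 to 6840 TPM at 40 min, and 5336 to 6771 TPM at 60 min of light. The summed level of the 10 glycogen genes was 278 to 376, 373 to 502, 458 to 573 and 415 to 423 TPM at the same times. It was thus lower at 60 than at 40 min in every library, while the stress sum was not. HSP12 and DDR2 made up most of the stress sum, with means of 2177 and 2380 TPM at 40 min and 2179 and 2587 TPM at 60 min. HSP26 also had a higher mean at 60 min (424 against 392 TPM). The means of HSP104 (308 to 249 TPM), PNC1 (549 to 440), SPI1 (114 to 91.6), CTT1 (49.2 to 41.3) and ALD3 (43.7 to 41.4) were lower at 60 than at 40 min. At 40 min 4 of 8 stress marks were called higher, DDR2 (1.38), HSP12 (0.96), HSP26 (0.93) and CTT1 (0.68), and 0 lower. Of all genes tested, 3.54% were called higher and 0.254% lower at that time. The summed level of 8 ribosome assembly genes was 915 to 1003 TPM at 40 min against 1090 to 1159 TPM at 0 min, and 1 of them, NSR1, was called lower (-0.41). The part of the stress response in the result was not tested.

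Some regulators of the pathway were called as well at 40 min, where 3.54% of all genes tested were called higher and 0.254% lower. Of the transcription regulators and their kinase, 3 of 7 were called higher by limma and 0 lower, namely GIS1 (0.39), MSN4 (0.34) and the stress-induced repressor gene XBP1 (0.62). GIS1 had 21.8, 19.5 and 22.3 TPM at 40 min, against 16.0, 15.2 and 16.6 TPM at 0 min, with no overlap. Of the 14 phosphatase, kinase and cyclin genes 2 were called, PSK1 (0.32) and GIP2 (0.60), of which GIP2 encodes another putative regulatory subunit of Glc7. The 6 supply genes had 0 calls at 40 min with a median change of 0.31.

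In cells moved from light to dark, limma with time as the only factor, as in the light course, called 0 of the 10 glycogen genes at each time. The number of calls depends on whether replicate numbers are taken into account, and a fit that does so is given further below. At 30 min 0.0% of 5884 genes were called, and the changes of the 10 lay between -0.17 (PGM2) and 0.07 (GAC1), 5 positive and 5 negative, with 0 unadjusted p under 0.05. At 60 min 0 of 10 were called (0.306% of genes), with a median change of 0.13 against 0.04 for all genes and 0 unadjusted p under 0.05. At 90 min 0 of 10 were called (1.95% of genes), 9 of 10 changes were positive, and the median was 0.32 against 0.07 for all genes. Unadjusted p was under 0.05 for 3 genes at 90 min. edgeR on recovered reads called 0 of 10 at each time, beside 0.0%, 0.722% and 3.35% of all genes, with 0, 3 and 6 unadjusted p under 0.05 at 30, 60 and 90 min.

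Values at 90 min of dark were higher than at 0 min for most of the genes. GLC3 had 31.5, 34.3 and 39.2 TPM at 0 min, 29.0, 40.9 and 39.7 TPM at 30 min, 33.8, 48.1 and 50.0 TPM at 60 min, and 43.0, 51.5 and 56.6 TPM at 90 min (log2 change at 90 min 0.51 ± 0.18, limma adjusted p = 0.22). IGD1 had 34.7, 30.4 and 34.4 TPM at 0 min, 32.4, 36.6 and 31.8 TPM at 30 min, 32.5, 39.1 and 36.4 TPM at 60 min, and 38.2, 49.4 and 44.2 TPM at 90 min (0.39 ± 0.11, limma adjusted p = 0.12). For both genes, every 90 min library lay above every 0 min library. GPH1 had 93.8, 100 and 118 TPM at 90 min against 78.0, 81.3 and 85.6 TPM at 0 min (0.34 ± 0.13, limma adjusted p = 0.266). GDB1 had the highest estimate, 0.56 ± 0.28, with overlapping groups, at 25.9, 33.6 and 44.3 TPM at 90 min against 16.4, 24.5 and 28.5 TPM at 0 min. PGM2 had 182, 203 and 237 TPM at 90 min against 156, 171 and 176 TPM at 0 min (0.30 ± 0.17), and GLG2, the only gene with a negative value, changed by -0.11 ± 0.09 on that scale without passing the test. Groups at 90 and 0 min did not overlap for 5 of the 10 genes, GLC3, PGM2, GPH1, IGD1 and GAC1, all higher at 90 min, beside 11.6% of all genes tested.

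Replicate 1 of this course stood low. At 60 min the summed level of the 10 genes was 441 TPM in replicate 1 and 598 and 631 TPM in the others, and replicate 1 was the lowest of 3 at each of the 4 times. SET2 RNA was lowest in the same replicate, as given above, and its part in the result was not tested. Without replicate 1 throughout, limma called 2 of the 10 genes at 90 min, GLC3 (0.55, adjusted p = 0.0125) and IGD1 (0.52, adjusted p = 0.0284). That fit called 415 of all 5875 genes tested. Without replicate 1 at 90 min alone limma called 1, IGD1 (0.48, adjusted p = 0.0431), beside 173 of all 5883 genes tested. The stress marks summed to 3318 to 3919 TPM at 0 min, 3711 to 4048 at 30 min, 4984 to 5507 at 60 min and 5751 to 6292 at 90 min. At 90 min 3 of 8 were called higher by limma, DDR2 (1.00), HSP12 (0.83) and the aldehyde dehydrogenase gene ALD3 (1.32). Of all genes tested, 1.95% were called in either direction at that time. The part of the stress marks in the glycogen genes' values was not tested. The 14 phosphatase, kinase and cyclin genes, the 6 supply genes and the 7 transcription regulators had 0 calls in this course.

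The change at 90 min of dark minus that at 60 min of light was tested in 1 limma fit over both courses. It was called for 0 of the 10 genes, where 0.441% of 5900 genes were called. The differences ran from -0.26 (GLG2) to 0.19 (GSY1) on the log2 scale, with a median of 0.06 against 0.01 for all genes. Only GLG2 had an unadjusted p under 0.05 (-0.26 ± 0.12 SE, adjusted p = 0.499), and edgeR on recovered reads had 0 calls (0.98% of all genes) and 0 unadjusted p under 0.05. A difference between the courses was thus not detectable for these genes with these libraries, and a p above the threshold does not show that they moved alike.

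H3K36me3 over the glycogen genes followed the light. Of the 9 genes listed, IGD1 lay under percentile 10 of the mean value, below which genes were not tested, leaving 8. In the dark to light course the mark rose over 8 of 8 (limma slope of the log2 value, adjusted p under 0.05), as over 99.9% of 4816 genes tested, so the call says nothing particular to them. Their slopes were 2.49 (GLC3), 2.47 (GSY2), 2.44 (PGM2), 2.10 (GLG1), 2.08 (GSY1), 2.03 (GDB1), 1.65 (GAC1) and 1.30 (GLG2) log2 units per hour, with SEs of 0.15 to 0.21. The median was 2.09, against 1.87 for all genes tested.

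The deposited values, in units the sources used here do not give, show the spread between genes. GLC3 had 0.0261, 0.0332 and 0.0271 at 0 min, 0.0683, 0.0758 and 0.0945 at 20 min, 0.11, 0.149 and 0.156 at 40 min, and 0.168, 0.184 and 0.215 at 60 min. No library overlapped those of another time. PGM2 had 0.0244, 0.0321 and 0.0255 at 0 min, 0.0673, 0.0636 and 0.08 at 20 min, 0.103, 0.135 and 0.156 at 40 min, and 0.148, 0.175 and 0.188 at 60 min. GLG2 had 0.0154, 0.0205 and 0.0157 at 0 min, 0.0256, 0.0241 and 0.0301 at 20 min, 0.0352, 0.0427 and 0.0482 at 40 min, and 0.0428, 0.0484 and 0.0527 at 60 min. For GLG2, 40 and 60 min overlapped. At 60 min the mark over GLG2 was well below that over GLC3 or PGM2, although the 0 min values lay much closer. The mean at 60 min was 6.56 times that at 0 min for GLC3, 6.24 for PGM2, 6.23 for GSY2, 5.13 for GSY1, 4.87 for GLG1, 4.78 for GDB1, 3.59 for GAC1, 3.16 for IGD1 and 2.79 for GLG2, against 4.13 for the median gene.

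The slopes were also fitted after dividing each library by its median, so that they are relative to the median gene, which takes out most of the common rise. Relative to it, GLC3 (0.50 ± 0.12 per hour, limma adjusted p = 0.00394), PGM2 (0.46 ± 0.10, adjusted p = 0.00233), GSY2 (0.45 ± 0.12, adjusted p = 0.00733) and GSY1 (0.21 ± 0.07, adjusted p = 0.0357) gained the mark faster. GLG2 (-0.53 ± 0.06, limma adjusted p = 9.84e-05) and GAC1 (-0.26 ± 0.08, adjusted p = 0.0131) gained it more slowly, and GLG1 and GDB1 were not called. In that fit 14.5% of genes were called higher and 31.4% lower. The values of GLC3, PGM2 and GSY2 lay above those of 97.4% to 98.2% of genes, and that of GLG2 above 6.33%.

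In the light to dark course of set2Δ cells the mark fell over 8 of 8 genes, as over 99.6% of 4813 genes tested. Slopes ran from -0.81 (PGM2) to -0.55 (GSY1) log2 units per hour, with a median of -0.72 against -0.75 for all genes. PGM2 had 0.0837, 0.109 and 0.0893 at 0 min, 0.0619, 0.0714 and 0.0633 at 30 min, 0.0423, 0.0469 and 0.0465 at 60 min, and 0.0327, 0.0376 and 0.0419 at 90 min. At 90 min 39.8% of the 0 min mean was left over PGM2 and 52.4% over GSY1, the extremes of the 8, against 43.2% for the median gene and 58.9% for the untested IGD1. After division by the library median, 0 of the 8 were called (10.9% of genes were) by limma, with 2 unadjusted p under 0.05.

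**Figure D4:**
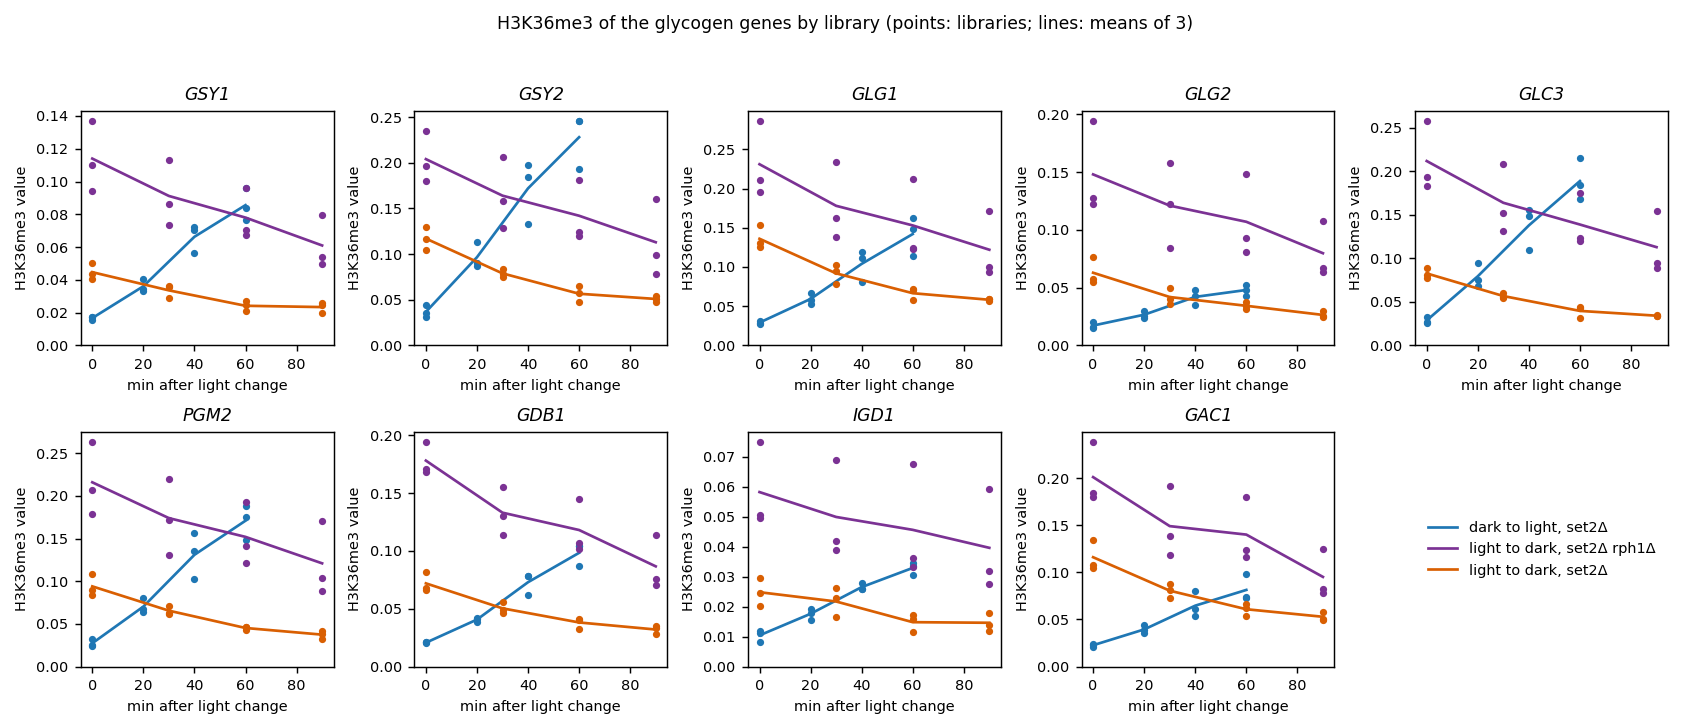
H3K36me3 over the 9 listed glycogen genes by time after the light change. The x axes give min, the y axes the deposited H3K36me3 value from 0, points are libraries and lines are means of 3; blue is dark to light, purple light to dark labelled set2Δ rph1Δ, and orange light to dark in set2Δ. Lines rise in light and fall in the dark, and in light GSY2, GLC3 and PGM2 gain most on this axis and IGD1 and GLG2 least.

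The genotype of the course labelled set2Δ rph1Δ could not be checked in the H3K36me3 values. RPH1 itself was listed in that table, at 0.132, 0.13 and 0.378 at 0 min, 0.0887, 0.152 and 0.15 at 30 min, 0.00272, 0.00313 and 0.302 at 60 min, and 0.0635, 0.0338 and 0.072 at 90 min. These values scattered widely between replicates and did not stay near 0, and how a value arises from reads is not stated. SET2 was not listed, so results from these libraries are given under their label.

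In the course labelled set2Δ rph1Δ, the mark fell over 8 of 8 glycogen genes, as over 97.4% of 4815 genes tested. Slopes ran from -0.61 (GAC1) to -0.50 (GSY1) per hour, with a median of -0.55, equal to that of all genes. PGM2 had 0.179, 0.207 and 0.263 at 0 min, 0.131, 0.172 and 0.22 at 30 min, 0.121, 0.141 and 0.193 at 60 min, and 0.0884, 0.104 and 0.171 at 90 min. Replicate 3 was the highest at each time, as it was for the median gene (0.146 in replicate 3 at 90 min, against 0.0777 and 0.086 in the others). At 90 min 47.3% (GAC1) to 56.1% (PGM2) of the 0 min mean was left over the 8 genes, 53.1% over the median gene and 67.9% over IGD1. Without replicate 2, 0 of the 8 and 3 genes of the whole table were called by limma, with slopes of -0.58 to -0.47 and adjusted p of 0.0987 to 0.112. After division by the library median 0 of the 8 were called (0.415% of genes), with 0 unadjusted p under 0.05.

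**Figure D5:**
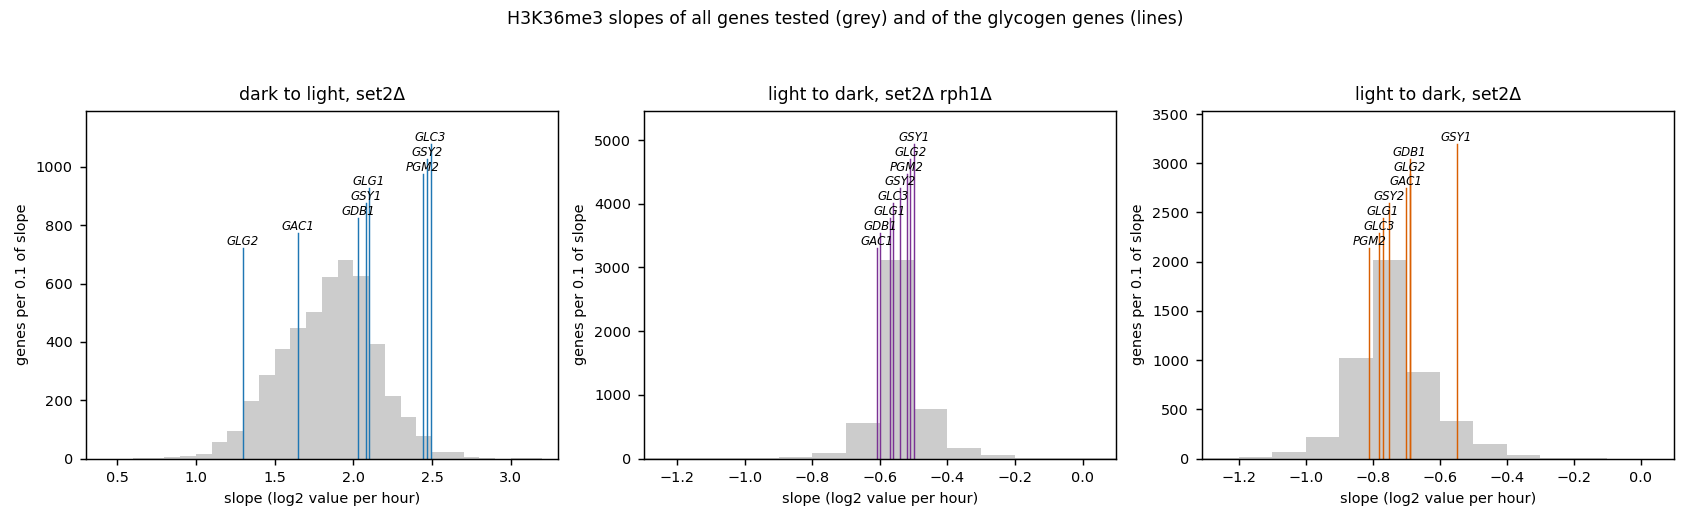
Slopes of H3K36me3 of all genes tested (grey histogram, genes per bin of 0.1) and of the 8 glycogen genes tested (coloured lines, whose heights only separate the names), in dark to light, light to dark labelled set2Δ rph1Δ and light to dark in set2Δ. The x axes give log2 units of the value per hour. The glycogen genes spread from 1.30 to 2.49 in light, and in the dark they lie within the bulk of all genes.

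The slope in the dark labelled set2Δ rph1Δ minus that in set2Δ was called for 0 of the 8 glycogen genes and 0.0% of 4712 genes by the limma interaction, with 0 of the 8 at an unadjusted p under 0.05. That fit did not take replicate numbers into account. The number of calls, over all genes too, depends on this, and a fit that does so is given further below. The differences were all positive, from 0.04 ± 0.19 (GSY1) to 0.30 ± 0.19 (PGM2) log2 units per hour, with a median of 0.19 against 0.20 for all genes, of which 97.7% were positive. With each library divided by its median, 2 of the 8 were positive (PGM2 0.09 and GLC3 0.02) and 6 negative, to -0.14 for GSY1 and GAC1. In that fit 0 of the 8 were called (0.0849% of genes), with 2 unadjusted p under 0.05.

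The authors' deposited tables of changed genes list some of these genes, with adjusted p-values under 0.05 throughout. Their log2 fold changes carry the opposite sign to the change of TPM in 100% of the genes they list, so a negative value there goes with higher RNA at the later time. For 20 min of light, the authors' deposited table lists 3 of the 10, IGD1 (-0.44), GLG1 (-0.35) and GSY2 (-0.31). For 40 min of light the authors' deposited table lists 6, GSY2 (-0.49), GDB1 (-0.47), GLC3 (-0.45), IGD1 (-0.45), GLG1 (-0.32) and GPH1 (-0.32). These are the 5 genes called here at that time plus GPH1. For 60 min of light the authors' deposited table lists GDB1 (-0.29), and for 90 min of dark it lists GLC3 (-0.33).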

How the data were processed

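RNA was measured in 29 libraries and H3K36me3 ChIP-seq in 36. For rph1Δ and WT, the authors deposited estimated counts and TPM per gene, per the file headers, whose columns are those of Salmon. For the courses the authors deposited TPM. H3K36me3 values were deposited as 1 signal value per gene and library, and whether the S. pombe spike-in chromatin entered them is not given in the sources used here. Per the submitters' processing notes the tools included STAR, Salmon 0.8.1, deepTools 2.5.4 and DESeq2 1.14.1, and the build was sacCer3. The authors' tables of changed genes hold log2 fold changes, p-values and adjusted p-values, per the file headers. Whether counting used the strand is not given.

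From these files, estimated counts of rph1Δ and WT were rounded and tested with edgeR 4.0.16 (filterByExpr, TMM, quasi-likelihood). Course TPM were tested as log2(TPM + 1) with limma 3.58.1 for genes with a mean of at least 1 TPM, so fold changes of low genes are understated. For H3K36me3, 0.1 of the table's median was added to each value before taking log2, genes whose mean lay below percentile 10 were left out, and slopes per hour were fitted with limma. P-values were adjusted by Benjamini-Hochberg over all genes tested (threshold 0.05). Reads in the courses were recovered from TPM and effective lengths. Of the values checked, which were the non-zero ones of lower read number, 100% came out whole within 0.05. Of 6692 IDs, 6008 matched the RefSeq R64 annotation, and 5675 had the same length there. Scripts were tested on simulated data. The genes followed and the lists beside them were chosen with earlier results of these data known. All 10 genes are named in each comparison, as are at most 4 called genes per list. Alternatives were DESeq2 1.42.0, other scaling, filters and pseudocounts, edgeR on recovered reads, a replicate block, other time coding and left-out libraries. Tables of fitted model values were not used.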

Additional observations from a re-analysis of the deposited data

How the results depend on the processing

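Over the changes of single genes, 338 of the values under another setting and 449 of those with a library left out kept their direction and their side of the threshold. Of the others, 7 and 44 lost the call, 12 and 3 gained it, and 19 and 3 turned their sign. GLG2 in rph1Δ against WT was called under each alternative run, DESeq2 included, with log2 changes of 0.43 to 0.51 when 1 library was left out. At 40 min of light the number of glycogen genes called was 0 to 5 with a library left out, and at 90 min of dark 0 to 2. In the course labelled set2Δ rph1Δ it was 0 to 8. The change of GSY1 turned its sign with a library left out at 60 min of light (-0.34 to 0.11) and at 90 min of dark (-0.02 to 0.26). The cause was not tested.

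Nothing in the labels says what a replicate number shares, and not every pair of same-numbered libraries had a correlation of deviations over 0.1, so the numbers were not taken to pair the samples. Same-number correlations ran from -0.0567 to 0.0106 (median -0.0185) for rph1Δ and WT, from -0.0744 to 0.254 (median 0.164) for dark to light RNA and from 0.0329 to 0.503 (median 0.289) for light to dark RNA, and for H3K36me3 from -0.265 to 0.508 with medians of 0.138 to 0.178. Between different numbers the medians of the RNA courses were -0.0763 and -0.163. As a hint from the data, the mean correlation was highest with the own number in 1 of 6, 8 of 11 and 10 of 12 RNA libraries, and in 12, 8 and 10 of 12 H3K36me3 libraries (dark to light, light to dark in set2Δ, and that labelled set2Δ rph1Δ). With the replicate block, 8 of the 10 glycogen genes were called at 40 min of light, beside 748 of all 5907 genes tested. At 60 min of light 1 was called (GDB1), beside 328 of 5907. At 90 min of dark 6 were called (GSY2, GLC3, PGM2, GPH1, GDB1 and IGD1, all higher), beside 782 of 5884. For the slope difference 2 of 8 were called (GLC3 and PGM2), beside 2056 of 4712, so this is not particular to them. The block changed the number of glycogen genes called in no other comparison.

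With each library divided by its median, H3K36me3 slopes are relative to the median gene, and by that construction the common change is gone. 0 glycogen genes were then called in either light to dark course. Slopes turned sign for GLG2 (-0.53) and GAC1 (-0.26) in light. They did so in the dark in set2Δ for GSY1 (0.16), GSY2 (0.03), GLG1 (0.02), GLG2 (0.04), GDB1 (0.06) and GAC1 (0.08), and in the course labelled set2Δ rph1Δ for GSY1 (0.01), GSY2 (0.02), GLC3 (0.00), GLG2 (0.03) and PGM2 (0.04). The slope difference did so for GSY1 (-0.14), GSY2 (-0.02), GLG1 (-0.03), GLG2 (-0.01), GDB1 (-0.12) and GAC1 (-0.14).

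Over all genes, limma called 224 at 40 min of light, edgeR on recovered reads 482 and the block 748. At 60 min these counts were 3, 139 and 328, at 60 min of dark 18, 42 and 155, at 90 min of dark 115, 195 and 782, and for the difference between courses 26, 58 and 162. For H3K36me3, division by the library median gave 696 higher and 1513 lower calls in light, where 4810 were higher without it. It gave 313 higher and 213 lower in the dark in set2Δ, where 4793 were lower without it, and 20 lower in the course labelled set2Δ rph1Δ, where 4689 were lower without it. In all these were 2209, 526 and 20 calls. The block called 2056 slope differences, against 0 without it.

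With 2 or 3 libraries per time and as few as 42 reads for IGD1 and 91 for GAC1 in the YPD set, small changes of low genes are not detectable.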

Other observations

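The makeup of paired enzymes differed between the sets of libraries, which were grown in different media, came from different strains and were deposited in separate tables, so the values stand side by side without a test. PGM2 RNA was 0.171 to 0.224 times that of PGM1, which encodes the minor phosphoglucomutase, in the 6 libraries from YPD. It was 1.54 to 3.16 times that of PGM1 over the 11 libraries of dark to light, and 2.06 to 3.61 times over the 12 of light to dark. The ratio of GSY2 to GSY1 had a median of 5.71 on YPD, 3.71 in dark to light and 2.57 in light to dark, with ranges of 4.29 to 6.55, 2.84 to 4.57 and 2.2 to 2.85. GLG1 stood at 0.287 to 0.455 times GLG2 on YPD, 0.537 to 0.995 times in dark to light and 0.441 to 0.742 times in light to dark. Within the YPD set, the ratio of GSY2 to GSY1 was 6.28 ± 0.237 in rph1Δ and 4.87 ± 0.53 in WT (SD, n = 3 each).

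H3K36me3 over the glycogen genes at 0 min of the light to dark courses differed in level between the tables. GLC3 had 0.183, 0.194 and 0.258 in the libraries labelled set2Δ rph1Δ, against 0.0812, 0.0895 and 0.0778 in set2Δ. GSY2 had 0.18, 0.196 and 0.235 in the libraries labelled set2Δ rph1Δ, against 0.104, 0.13 and 0.116 in set2Δ. Scaling between these tables is not stated, so no fold is given.

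The genes whose RNA followed GSY2 most closely over the 29 libraries were CIT1, GUT2, ALD4, TSL1 and TPS1, with a root mean square distance of 0.0941 to 0.104 on the log2(TPM + 1) scale after each gene was centred within each set. The median over the 4163 genes compared was 0.221. PGM2 stood at 0.178 from GSY2 (rank 728) and GLG2 at 0.237 (rank 2624). GSY1, GPH1, GLC3, GDB1, IGD1, GLG1 and GAC1 averaged under 10 TPM in the YPD set, while this comparison needed a mean of at least 10 TPM in every set. They were therefore not compared with GSY2, and the ranking says nothing about them.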
